A study of Mus musculus with 45 samples.

Results

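The 30 genes described here encode proteins of the ciliary transition zone, of the inversin compartment and of the ciliary membrane and basal body, most of them mutated in human ciliopathies. They were chosen as a named list of gene symbols, with no threshold on a measured value but with earlier results of these data known, and all 30 were found among the 55401 annotated genes of the count tables. All 30 also passed the filter on low counts, among 15991 protein-coding genes tested in males and 15968 in females, so no member was lost to it. They were measured by translating ribosome affinity purification (TRAP) RNASeq, in which tagged ribosomes and the mRNA bound to them are pulled from kidney tissue and sequenced. The libraries came from 45 mice at 7 weeks of age (P49), all given oral doxycycline from P28 to P42.

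The groups were noncystic mice with the genotype Pkd1 fl/+ (8 males and 7 females), Pkd1KO mice with Pkd1 fl/fl (7 males and 8 females), and Pkd1KO+ciliaKO mice with Pkd1 fl/fl and Kif3a fl/fl (9 males and 6 females). Every mouse, the noncystic ones included, carried 1 copy each of a RosaEGFP-Rpl10a allele, Pax8rtTA and TetOCre. Cre was therefore expressed in nephron epithelium under Pax8rtTA and doxycycline, and it switched on the tagged ribosomal protein in the same cells. Noncystic mice were heterozygous for the floxed Pkd1 allele and not free of it. Each mouse gave 1 library, and 80874556 to 132958186 fragments were counted per mouse (median 103070359). In such bulk material, fewer cells of a type and less RNA per cell cannot be told apart.

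The transition zone is a short segment at the base of the primary cilium, where membrane and soluble proteins form a gate that decides which proteins enter. Its core holds the MKS/B9 complex and the tectonics, and scaffolds such as Cep290 and the nephronophthisis proteins tie it to the microtubules, while inversin marks a separate stretch of the shaft just above it. Loss of these proteins causes Meckel syndrome, Joubert syndrome and nephronophthisis, with renal cysts or fibrosis as a common feature. Polycystin-1, the product of Pkd1, resides on the cilium, and Kif3a is a subunit of the motor that builds it, so the 3 genotypes ask which transcripts move when polycystin-1 is lost and which of these changes need an intact cilium.

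Most of the 30 genes showed no difference between genotypes that passed the test. A gene passed where edgeR's quasi-likelihood test gave an adjusted p (Benjamini-Hochberg, over every protein-coding gene tested) no higher than 0.05. By this rule 22 members passed in none of the 6 comparisons of genotypes within a sex, and their log2 fold changes lay between -0.24 and 0.29. The 8 that passed at least once were Anks3, Ptpdc1, Rab23, Tmem67, Sdccag8, Invs, Tmem237 and Nek1. Of these 8, Anks3, Ptpdc1, Rab23 and Tmem67 had been named by the study from these same libraries, so their calls are not independent evidence.

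**Figure D1:**
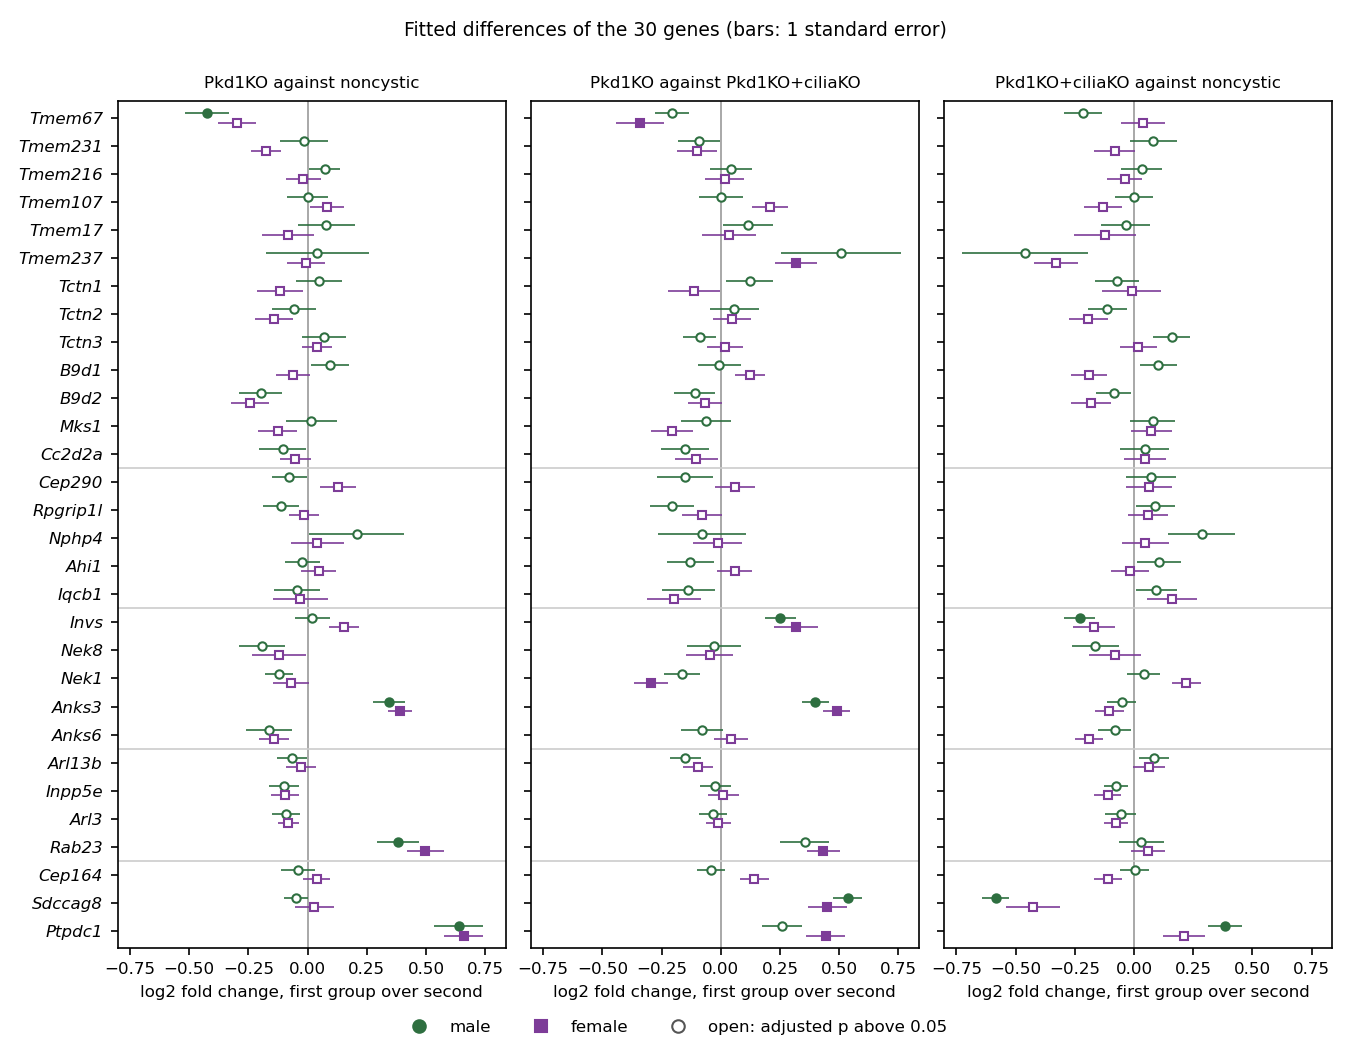
Log2 fold change (x axis) of each of the 30 genes (y axis) in the 3 comparisons of genotypes, males as circles and females as squares, with bars of 1 standard error and filled symbols for an adjusted p of at most 0.05. Anks3, Ptpdc1 and Rab23 stand to the right in Pkd1KO, Sdccag8 lies to the left in Pkd1KO+ciliaKO against noncystic mice, and most other genes lie near 0.

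The members differed in level over a wide range. On the scale of the deposited TPM, which corrects for length, Arl3, a small GTPase that releases lipid-anchored cargo inside the cilium, had the highest median of the 30 in all 6 groups, at 76.8 to 96.4 TPM (median 81.0) in noncystic males and at 93.1 to 107 (median 98.5) in noncystic females. Nphp4, a nephronophthisis protein of the transition zone, lay between 1.30 and 3.07 TPM (median 1.46) in noncystic males, and Tctn1, a tectonic, between 1.37 and 2.20 (median 1.72). These were the 2 lowest medians there and also in noncystic females, in whom Tctn1 had a median of 2.03 TPM and Nphp4 of 2.19, and their ranges overlapped in both sexes. The median over the 30 genes was 9.54 TPM in noncystic males and 9.71 in noncystic females, but the tables of the sexes were normalized separately. The lowest counts were those of Tmem17, with 127 to 297 per mouse. Of the exon bases of Tctn1, 25.47% are shared with Hvcn1 and Gm15481 on the opposite strand, so its level is uncertain.

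**Figure D2:**
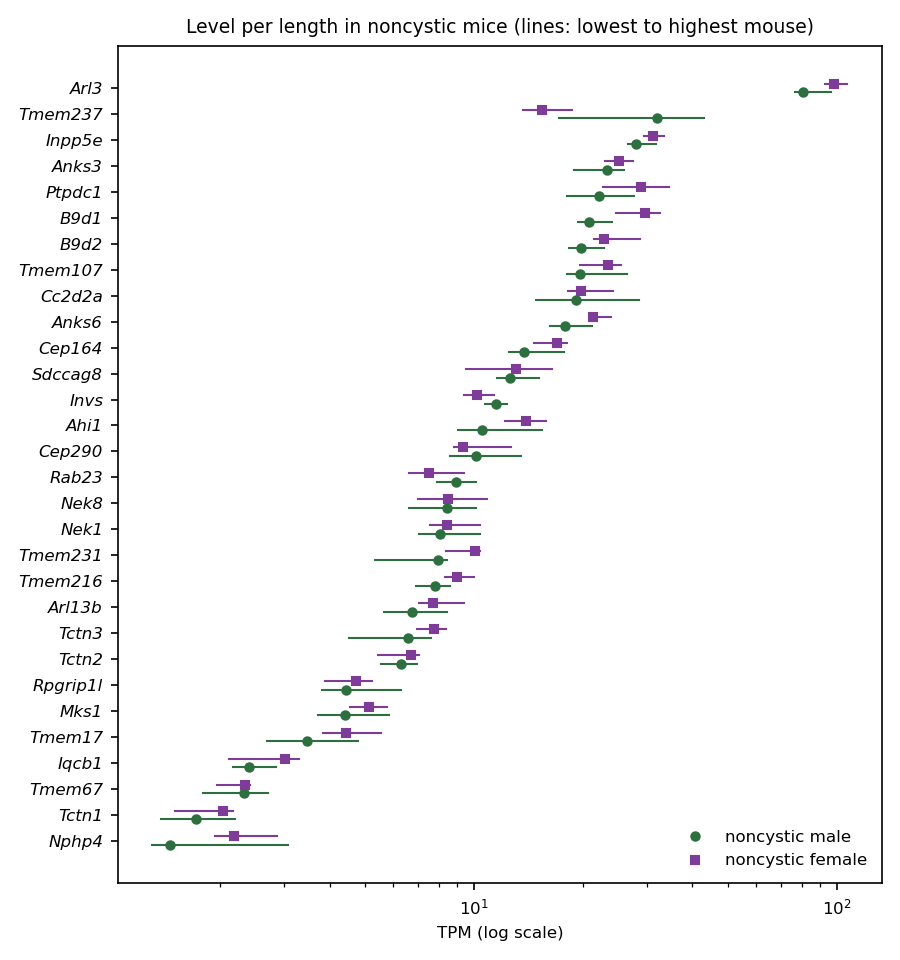
Deposited TPM on a log scale (x axis) of the 30 genes (y axis) in noncystic males (circles) and noncystic females (squares), with the median as the symbol and a line from the lowest to the highest mouse. Arl3 has the highest median, at 81.0 TPM in males and 98.5 in females, and Nphp4 and Tctn1 have the lowest, while Tmem237 has a median of 31.9 TPM in males and 15.4 in females.

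Anks3 and Invs belong to the inversin group, Ptpdc1 and Sdccag8 to the centrosomal one, Rab23 to the ciliary membrane and Tmem67 to the core transition zone, so the genes that passed most often were spread over 4 of the 5 functional groups. They also lie apart in the genome, with Anks3 at chr16:4941436-4964205 (minus strand), Ptpdc1 at chr13:48577872-48625664 (minus), Rab23 at chr1:33719887-33742564 (plus), Tmem67 at chr4:12039355-12090020 (minus), Sdccag8 at chr1:176814660-177020437 (plus) and Invs at chr4:48279760-48431954 (plus), all on GRCm38. Anks3 lies 0.35 Mb from Glis2. B9d1 lies 7.94 Mb from Kif3a on chromosome 11, and no member lies on the chromosome of Pkd1.

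The stretches just upstream of Anks3, Ptpdc1 and Rab23 are shown because these 3 genes rose in Pkd1KO mice of both sexes. They are the unbroken stretch nearest to the RefSeq start, within the 250 bases before it, that lies in no annotated exon, 5′ to 3′ on the strand of the gene (RefSeq, GRCm38.p6), at chr16:4964238-4964288 for Anks3, chr13:48625673-48625922 for Ptpdc1 and chr1:33719646-33719886 for Rab23. The Anks3 stretch is 51 bases long, and 175 of its 250 upstream bases lie in exons.
Anks3: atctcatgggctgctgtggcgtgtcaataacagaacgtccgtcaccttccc
Ptpdc1: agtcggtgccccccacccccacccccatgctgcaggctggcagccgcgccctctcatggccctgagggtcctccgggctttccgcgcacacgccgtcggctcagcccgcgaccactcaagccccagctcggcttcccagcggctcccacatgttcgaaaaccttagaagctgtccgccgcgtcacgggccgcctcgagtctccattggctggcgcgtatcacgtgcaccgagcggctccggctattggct
Rab23: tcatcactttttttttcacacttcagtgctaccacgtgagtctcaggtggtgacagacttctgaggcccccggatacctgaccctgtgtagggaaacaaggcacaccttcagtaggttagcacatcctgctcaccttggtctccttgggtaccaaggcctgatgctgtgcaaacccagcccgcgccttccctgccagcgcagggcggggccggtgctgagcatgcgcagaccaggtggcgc

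The X-box, the motif of the RFX factors that drive many ciliary genes, was searched on both strands of the 250 bases before the start, as GTNNCC followed by NNN and GNAAC. It was found in Mks1 and Tctn2, which is 2 of the 26 members with an entry in the promoter table (7.69%), against 1.8% of the 32851 entries. A member counts only with its entry of outermost start, while the 32851 hold every entry. The shares here and below are therefore not of like units. Both are shown because they hold this motif, which stands in capitals, and in Tctn2 the capitals also mark ACCCCCCA, the reverse strand of TGGGGGGT, a site of the Glis factors.
Mks1: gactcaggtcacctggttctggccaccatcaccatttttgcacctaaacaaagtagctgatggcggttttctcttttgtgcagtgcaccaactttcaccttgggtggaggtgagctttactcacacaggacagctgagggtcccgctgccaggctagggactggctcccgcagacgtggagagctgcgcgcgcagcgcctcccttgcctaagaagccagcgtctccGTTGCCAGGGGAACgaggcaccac
Tctn2: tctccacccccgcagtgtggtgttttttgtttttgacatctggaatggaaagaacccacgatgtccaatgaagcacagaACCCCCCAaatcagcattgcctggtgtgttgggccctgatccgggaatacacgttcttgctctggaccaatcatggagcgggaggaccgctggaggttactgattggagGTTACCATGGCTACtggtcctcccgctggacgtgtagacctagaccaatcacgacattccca
These windows lie at chr11:87852965-87853214 (Mks1) and chr5:124598499-124598748 (Tctn2), both on the plus strand. The shorter RFX motif GTTGCC was in 4 members (15.4%, against 10.4% of all entries), and in Mks1 it lies inside the X-box. TGGGGGGT was in Tctn2 alone (3.85%, against 1.36%), and the Gli site TGGGTGGTC was in none of the 26 (0.225% of all entries). Neither Mks1 nor Tctn2 passed the test between any pair of genotypes, and none of these motifs was found upstream of Anks3, Ptpdc1 or Rab23.

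Before the comparisons, the targeted genes were read in every library. Kif3a lay between 4.90 and 7.45 CPM (counts scaled to the size of each library, with TMM factors over all 45 mice) in the 9 Pkd1KO+ciliaKO males and between 13.8 and 29.2 in all other males. In females, noncystic replicate 5 had 6.69 CPM against 23.2 to 25.3 in the other noncystic females, and Pkd1KO+ciliaKO replicate 6 had 20.7 CPM against 6.56 to 8.47 in the others of its group. These 2 libraries thus went against their labels, and the values without them are given beside each result that turns on them. A comparison of genotypes leaves out only those of the 2 that belong to its groups. The counts of Pkd1 cover the whole gene and overlapped between genotypes, with group medians of 36.6 to 54.0 CPM, and they are no check of a deletion of part of it. Separately, 4 males, noncystic replicate 3, Pkd1KO replicate 4 and Pkd1KO+ciliaKO replicates 6 and 8, lay apart from the other males on the first principal component.

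Pkd1KO was first compared with noncystic mice, which asks which members move when polycystin-1 is lost and cilia remain. Anks3, Ptpdc1 and Rab23 rose in both sexes, by 27.0% to 57.9%, and Tmem67 fell in males. In males 4 of the 30 passed (13.3%, against 6.30% of all genes tested), 3 of them higher (4.05% of all genes) and 1 lower (2.25%). In females 3 of the 30 passed, against 3.34% of all genes, and all 3 were higher (2.02%). The 3 genes called in both sexes are 75.0% of the male calls and 100% of the female ones. All these calls are of genes that the study had named from the same libraries as changed in both sexes. Neither the shares nor the agreement of the sexes is therefore independent evidence, and 0 of the other 26 members passed. The medians over the 30 members were -0.03 (log2) in both sexes, against -0.01 in males and 0.00 in females over all genes.

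Anks3 encodes an ankyrin-repeat protein that binds Anks6 of the inversin compartment. In males it lay at 34.4 to 44.8 CPM in noncystic mice (median 39.5, n = 8), at 42.1 to 54.8 in Pkd1KO (median 51.2, n = 7) and at 35.3 to 42.1 in Pkd1KO+ciliaKO (median 38.6, n = 9). In females the same groups lay at 36.6 to 44.5 CPM (median 39.2, n = 7), 46.8 to 56.2 (median 52.2, n = 8) and 31.6 to 39.1 (median 38.2, n = 6). All 8 Pkd1KO females were above every other female, and 6 of the 7 Pkd1KO males were above every noncystic and every Pkd1KO+ciliaKO male, the exception being replicate 4. Against noncystic mice the log2 fold change was 0.34 in males (SE 0.07, adjusted p = 0.0057) and 0.39 in females (SE 0.05, adjusted p = 0.00029). Against Pkd1KO+ciliaKO it was 0.40 in males (SE 0.06, adjusted p = 0.00051) and 0.49 in females (SE 0.06, adjusted p = 0.00025). Pkd1KO+ciliaKO did not pass against noncystic mice in either sex, with values of -0.05 (SE 0.06) in males and -0.10 (SE 0.06) in females. The comparisons within a sex share mice and are given side by side.

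Ptpdc1 encodes a protein tyrosine phosphatase that has been linked to centrioles and cilium length. In males it lay at 31.0 to 47.4 CPM in noncystic mice (median 38.3), 46.6 to 69.7 in Pkd1KO (median 65.7) and 44.4 to 53.1 in Pkd1KO+ciliaKO (median 51.3). In females it lay at 36.4 to 53.3 CPM (median 46.2), 61.2 to 84.1 (median 70.3) and 43.3 to 58.6 (median 53.5). The Pkd1KO females did not overlap with either other group, and 6 of 7 Pkd1KO males were above all noncystic males. The rise over noncystic mice was 0.64 in males (SE 0.10, adjusted p = 0.0015) and 0.66 in females (SE 0.08, adjusted p = 0.00023), the largest of any member in this comparison. Unlike for Anks3, the Pkd1KO+ciliaKO groups lay between the others, and their own rise over noncystic mice passed in males (0.38, SE 0.07, adjusted p = 0.0026). In females it was 0.21 (SE 0.09, adjusted p = 0.18), and 0.30 (SE 0.08, adjusted p = 0.040) without the 2 libraries whose Kif3a went against their labels. Pkd1KO against Pkd1KO+ciliaKO gave 0.44 in females (SE 0.08, adjusted p = 0.0031) and 0.26 in males (SE 0.08, adjusted p = 0.095).

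Rab23 encodes a small GTPase that restrains Hedgehog signalling. In males it lay at 21.0 to 29.0 CPM in noncystic mice (median 25.1), 28.2 to 41.2 in Pkd1KO (median 33.2) and 19.5 to 31.6 in Pkd1KO+ciliaKO (median 26.7). In females it lay at 17.3 to 23.0 CPM (median 18.9), 22.3 to 31.6 (median 28.0) and 19.2 to 22.4 (median 20.3). In females 7 of 8 Pkd1KO mice were above every mouse of both other groups, and in males 5 of 7 were above all noncystic and 4 of 7 above all Pkd1KO+ciliaKO mice. Against noncystic mice the log2 fold change was 0.38 in males (SE 0.09, adjusted p = 0.015) and 0.50 in females (SE 0.08, adjusted p = 0.0012). Against Pkd1KO+ciliaKO it was 0.43 in females (SE 0.07, adjusted p = 0.0018) and 0.35 in males (SE 0.10, adjusted p = 0.065). The male rise over noncystic mice missed the threshold when limma was run on the TPM values. The Pkd1KO+ciliaKO values against noncystic mice were 0.03 (SE 0.10) in males and 0.06 (SE 0.07) in females.

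Tmem67, or meckelin, is a membrane protein of the transition zone whose loss causes Meckel syndrome with cystic kidneys. In males it lay at 4.97 to 6.97 CPM in noncystic mice (median 6.02), 3.99 to 4.81 in Pkd1KO (median 4.36) and 4.70 to 5.66 in Pkd1KO+ciliaKO (median 5.08). In females it lay at 4.88 to 5.73 CPM (median 5.47), 3.75 to 4.96 (median 4.26) and 4.39 to 6.29 (median 5.64). Every Pkd1KO male was below every noncystic male, and 7 of 8 Pkd1KO females were below every noncystic female. Against noncystic mice it fell by 0.42 on the log2 scale in males (SE 0.09, adjusted p = 0.011), and the value in females was -0.30 (SE 0.08, adjusted p = 0.053), which missed the threshold in edgeR and passed in DESeq2 (adjusted p = 0.0041) and in limma voom (adjusted p = 0.030). The male call was lost when limma was run on log2(TPM + 0.1). Against Pkd1KO+ciliaKO the female fall was -0.34 (SE 0.10, adjusted p = 0.038). It became -0.30 (SE 0.11, adjusted p = 0.084) without Pkd1KO+ciliaKO female replicate 6, whose Kif3a went against its label. The male value was -0.21 (SE 0.07, adjusted p = 0.13). Exons of other genes, among them Gm11842 and Rbm12b2 on the opposite strand, share 5.42% of its exon bases, and the strand setting of the counting was not given in the sources used here.

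**Figure D3:**
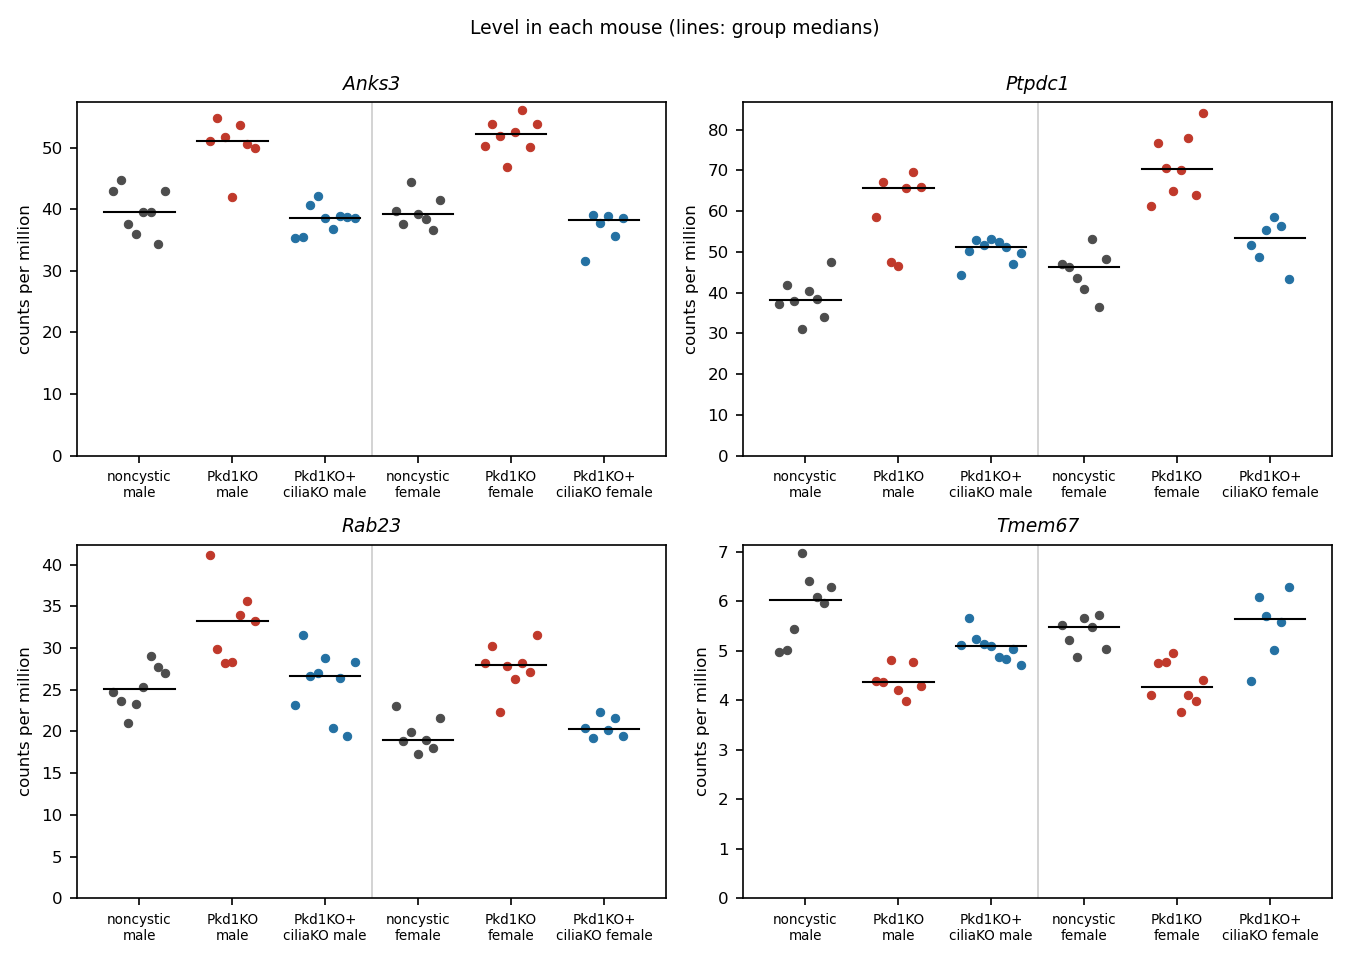
CPM (y axis, TMM scaled) of Anks3, Ptpdc1, Rab23 and Tmem67 in each mouse of the 6 groups (x axis), with a line at each group's median. The Pkd1KO medians of Anks3, Ptpdc1 and Rab23 lie above those of both other genotypes in each sex, and that of Tmem67 lies below them.

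None of the other 26 members passed in Pkd1KO against noncystic mice in edgeR's test, where 1 in males and 4 in females had an unadjusted p under 0.05. DESeq2, which called 10.3% of all genes in males and 6.02% in females, called 0 of the 26 in males and 1 in females, B9d2. For B9d2, a B9-domain protein of the MKS complex, edgeR gave -0.24 in females (SE 0.08, adjusted p = 0.11). Limma voom with sample weights, which called 9.22% and 5.07% of all genes, called 0 and 1 of the 26, the latter Tmem231. The log2 fold changes of the 22 members that never passed ran from -0.20 to 0.21 in males and from -0.24 to 0.13 in females in this comparison. By group, the core transition zone had 1 fall in 13 genes in males and 0 calls in females, the scaffolds 0 calls in 5 genes, and the inversin group 1 rise in 5, Anks3, in each sex. The ciliary membrane group had 1 rise in 4 (Rab23) and the centrosomal group 1 rise in 3 (Ptpdc1), again in each sex.

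Cell type markers moved in the same comparison, more of them in males. Over all genes, too, a larger share passed in males (6.30%) than in females (3.34%). All 4 proliferation markers rose in Pkd1KO males, with a summed level of 53.0 to 287 CPM against 18.6 to 54.6 in noncystic males. Unlike the CPM of single genes, the summed levels of markers were scaled to the library total alone, without TMM factors. Macrophage markers passed upward in 2 of 7 (92.6 to 435 CPM against 68.0 to 96.0), podocyte markers in 2 of 5 (61.9 to 187 against 37.0 to 106) and tubule injury markers in 2 of 5 (22.6 to 155 against 12.7 to 69.3), while 1 of 4 thick ascending limb markers and 1 of 7 proximal tubule markers fell. In females 1 of 4 proliferation markers rose (34.3 to 80.4 CPM against 23.7 to 55.9), 0 of 7 macrophage, 0 of 5 podocyte and 0 of 5 injury markers passed, and 1 of 4 thick ascending limb markers (Cldn16) and 1 of 7 proximal tubule markers (Slc13a3) fell. In each sex 1 mast cell marker rose, of 3 tested in males and 4 in females. No marker of these lists other than the mast cell gene Fcer1a was at 0 in every mouse of a group. The proximal tubule markers had the highest sums of all lists, at 4688 to 10173 CPM over all mice. The part of these markers in the members' differences was not tested.

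Pkd1KO was next compared with Pkd1KO+ciliaKO, both of which lack Pkd1 and differ in the floxed Kif3a alleles. Anks3, Sdccag8 and Invs were higher with cilia in both sexes, by 19.1% to 44.9%, and in females so were Ptpdc1, Rab23 and Tmem237, while Nek1 and Tmem67 were lower. In males 3 of the 30 passed, against 3.77% of all genes, and all 3 were higher (1.99%). In females 8 passed (26.7%, against 11.7% of all genes), 6 higher (7.05%) and 2 lower (4.65%). Without Pkd1KO+ciliaKO female replicate 6, whose Kif3a went against its label, 5 of these passed, against 10.4% of all genes. Invs, Tmem237 and Tmem67 then missed the threshold. Noncystic female replicate 5 is not part of this comparison. In males DESeq2 (7.72% of all genes) and limma voom (8.69%) also called Ptpdc1, Rab23 and Tmem67, the first 2 higher and the last lower, so that each called 6. The 3 called in both sexes by edgeR are 100% of the male calls and 37.5% of the female ones. The medians over the members were -0.04 in males and 0.02 in females, against 0.01 and -0.01 over all genes. Among the 26 members that the study did not name, 2 passed in males (7.69%, against 3.77% of all genes) and 4 in females (15.4%, against 11.7%). The other calls were of genes that the study had named from these libraries.

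Sdccag8, a centrosomal protein mutated in a nephronophthisis with retinal degeneration, was low in the groups with floxed Kif3a. In males it lay at 16.5 to 18.7 CPM in noncystic mice (median 17.6, n = 8), 16.0 to 18.3 in Pkd1KO (median 17.1, n = 7) and 10.3 to 13.3 in Pkd1KO+ciliaKO (median 11.7, n = 9). All 9 Pkd1KO+ciliaKO males were below every other male. In females it lay at 11.8 to 20.04 CPM (median 17.0, n = 7), 15.4 to 18.1 (median 17.3, n = 8) and 10.8 to 15.9 (median 11.8, n = 6). The 2 female values that crossed between the groups were those of the libraries whose Kif3a went against their labels, at 11.8 CPM in noncystic replicate 5, with the other noncystic females at 15.9 to 20.04, and at 15.9 in Pkd1KO+ciliaKO replicate 6, with the others at 10.8 to 12.6.

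The fitted differences of Sdccag8 had the same direction in both sexes. Against Pkd1KO+ciliaKO, Pkd1KO was higher by 0.54 in males (SE 0.06, adjusted p = 7.6e-05) and 0.45 in females (SE 0.08, adjusted p = 0.0031). Pkd1KO+ciliaKO fell by 0.58 against noncystic males (SE 0.06, adjusted p = 1.8e-06), and in females the value was -0.42 (SE 0.11, adjusted p = 0.059), which became -0.58 (SE 0.08, adjusted p = 0.0014) without the 2 libraries. Pkd1KO against noncystic mice gave -0.05 (SE 0.05) in males and 0.03 (SE 0.08) in females, neither past the threshold. Noncystic male replicate 8, whose Kif3a was 13.8 CPM against 20.4 to 25.5 in the other noncystic males, had 17.4 CPM of Sdccag8, within the range of its group.

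Invs encodes inversin, which defines the compartment just above the transition zone. In males it lay at 36.9 to 49.4 CPM in noncystic mice (median 45.8), 39.1 to 52.0 in Pkd1KO (median 46.1) and 33.8 to 40.9 in Pkd1KO+ciliaKO (median 38.2). In females it lay at 34.4 to 40.04 CPM (median 35.5), 37.3 to 48.9 (median 39.4) and 24.4 to 37.9 (median 34.1). Against Pkd1KO+ciliaKO, 6 of 7 Pkd1KO males and 6 of 8 Pkd1KO females were above the whole other group. That difference was 0.25 in males (SE 0.07, adjusted p = 0.040) and 0.32 in females (SE 0.09, adjusted p = 0.037). The female value was 0.32 (SE 0.10, adjusted p = 0.052) without Pkd1KO+ciliaKO female replicate 6. Pkd1KO+ciliaKO males fell by 0.23 against noncystic males (SE 0.07, adjusted p = 0.034), and the female value was -0.17 (SE 0.09, adjusted p = 0.30). Against noncystic mice, Pkd1KO stood at 0.02 (SE 0.07) in males and 0.15 (SE 0.06) in females, short of the threshold. These calls of Invs were lost when limma was run on the TPM values.

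**Figure D4:**
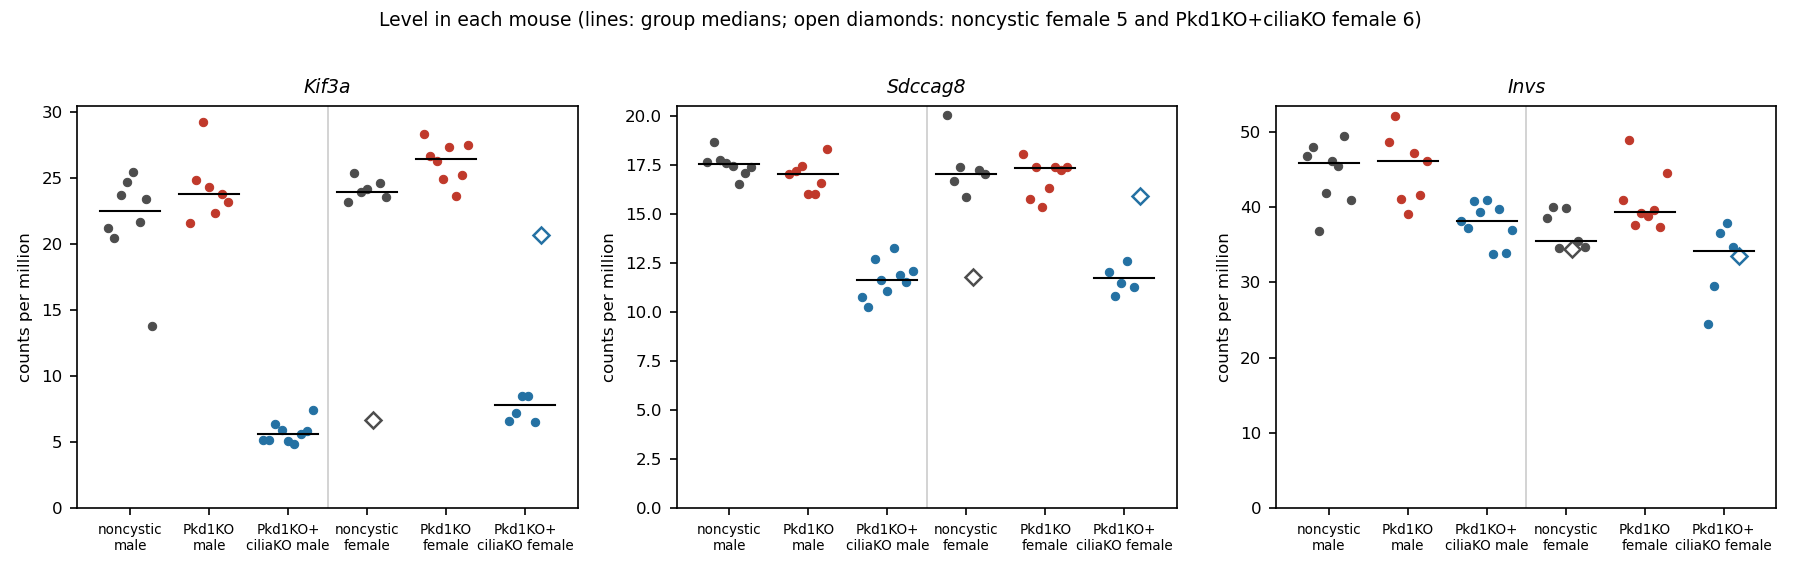
CPM (y axis, TMM scaled) of Kif3a, Sdccag8 and Invs in each mouse of the 6 groups (x axis), with a line at each group's median and open diamonds for noncystic female 5 and Pkd1KO+ciliaKO female 6. In Sdccag8 the 2 diamonds change sides as in Kif3a, at 11.8 and 15.9 CPM, while in Invs noncystic female 5 is the lowest of its group, at 34.4 CPM, and Pkd1KO+ciliaKO female 6 lies inside the range of its own.

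In females 2 further members passed. Nek1, a NIMA-family kinase whose mutation gives polycystic kidneys in mice, lay at 16.3 to 23.0 CPM in Pkd1KO females (median 20.1) and at 23.2 to 25.7 in Pkd1KO+ciliaKO females (median 23.9), with no overlap. It was lower in Pkd1KO by 0.30 on the log2 scale (value -0.30, SE 0.07, adjusted p = 0.015), and the male value was -0.16 (SE 0.08, adjusted p = 0.24). Tmem237, a membrane protein of the transition zone, was higher by 0.32 (SE 0.09, adjusted p = 0.032) in Pkd1KO females. Its value was 0.32 (SE 0.10, adjusted p = 0.053) without Pkd1KO+ciliaKO female replicate 6. The male value of Tmem237 was larger, 0.51, but its SE was 0.25 (adjusted p = 0.28). The female call of Tmem237 was also lost when limma was run on the TPM values. The interaction with sex, a test of whether the differences themselves differ, was 0.13 (SE 0.10, adjusted p = 0.76) for Nek1 and 0.19 (SE 0.30, adjusted p = 0.90) for Tmem237, so neither was shown to differ between the sexes.

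Pkd1KO+ciliaKO was then compared with noncystic mice, which differ in both Pkd1 and Kif3a. In males 3 of the 30 passed, against 8.89% of all genes, a share near that of all genes. Ptpdc1 was the 1 that rose (5.63% of all genes), and Sdccag8 and Invs were the 2 that fell (3.26%). In females 0 passed in edgeR's test, against 2.54% of all genes, though 8 had an unadjusted p under 0.05. DESeq2 (8.01% of all genes) and limma voom (8.50%) each called 4, in both cases Anks6, Nek1, Sdccag8 and Tmem237. Without the 2 libraries whose Kif3a went against their labels, edgeR called 2, Sdccag8 and Ptpdc1, against 5.80% of all genes. In edgeR the values of Anks6, an ankyrin protein of the inversin compartment, and of Tmem237 were -0.19 (SE 0.06, adjusted p = 0.080) and -0.33 (SE 0.09, adjusted p = 0.065) in females. The Tmem237 levels of the 6 Pkd1KO+ciliaKO females, 7.14 to 9.97 CPM, did not overlap with the 10.3 to 13.9 of the 7 noncystic females. The medians over the members were 0.02 in males and -0.06 in females, against 0.01 and 0.01 over all genes.

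Cell markers moved here too in males, where 8.89% of all genes passed, against 2.54% in females. All 4 proliferation markers rose in Pkd1KO+ciliaKO against noncystic males (40.1 to 122 CPM against 18.6 to 54.6), 4 of 7 proximal tubule markers fell (5700 to 8517 against 6732 to 10173), and 2 of 5 podocyte markers and 2 of 3 mast cell markers tested rose. In females 1 of 4 thick ascending limb markers rose (3378 to 5020 CPM against 3000 to 4229), and no proximal tubule, podocyte, macrophage or proliferation marker passed in edgeR's test. In Pkd1KO against Pkd1KO+ciliaKO, 3.77% of all genes passed in males and 11.7% in females. Thick ascending limb markers were lower there in 1 of 4 in males (1550 to 2965 CPM against 1934 to 3957). In females 2 of 4 were lower (2494 to 4159 against 3378 to 5020). Intercalated cell markers were lower in 2 of 5 in males (165 to 252 CPM against 203 to 346) and 1 of 5 in females (248 to 384 against 348 to 474), and the distal convoluted tubule marker Pvalb was lower in both sexes. The macrophage marker Csf1r, 1 of 7, was higher in both sexes (summed 92.6 to 435 CPM against 57.3 to 105 in males and 69.2 to 131 against 39.7 to 81.0 in females), as was the proximal tubule marker Slc5a2, 1 of 7, and in females 1 mast cell and 1 tubule injury marker were higher. The summed levels here too are without TMM factors. The part of these markers in the differences of the members was not tested.

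The sexes were compared in noncystic mice and then through the interaction of sex and genotype, in 1 fit of all 45 mice over 15828 genes. In noncystic mice 6 of the 30 passed, a smaller share than the 27.4% of all genes. Tmem237, Rab23 and Invs, 3 of the 30, were higher in males (14.1% of all genes), and B9d1, Tmem231 and Ptpdc1, again 3, were lower (13.3%). The median over the members was -0.06, against -0.03 over all genes.

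Tmem237 had the largest sex difference, at 2.25-fold (log2 1.17, SE 0.21, adjusted p = 4.2e-05). It lay at 11.7 to 36.8 CPM in noncystic males (median 26.5), 17.4 to 38.1 in Pkd1KO males (median 25.9) and 7.14 to 27.0 in Pkd1KO+ciliaKO males (median 20.8). In females it stayed between 7.14 and 13.9 CPM, with medians of 11.1, 10.97 and 9.41 in noncystic, Pkd1KO and Pkd1KO+ciliaKO mice. Males thus varied far more between mice than females, with a coefficient of variation of 33.5% in noncystic males, the highest of the 30 members in that group, where the median over members was 10.1%. The lowest value in noncystic males, 11.7 CPM, was that of replicate 3, and the lowest 2 in Pkd1KO+ciliaKO males, 7.84 and 7.14, were those of replicates 6 and 8, which are 3 of the 4 males apart from the rest on the first principal component. Without these 4 males and the 2 females noted above, the sex difference was 1.27 (SE 0.15, adjusted p = 1.6e-08). The antisense gene G730003C15Rik shares 10.55% of the exon bases of Tmem237.

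B9d1, a B9-domain protein of the MKS complex, lay at 10.7 to 13.2 CPM in noncystic males (median 11.3) and 12.3 to 16.7 in noncystic females (median 14.0), a value of -0.32 for males against females (SE 0.07, adjusted p = 0.00091). In Pkd1KO it lay at 10.8 to 15.1 CPM in males (median 12.1) and 12.5 to 15.1 in females (median 13.6). In Pkd1KO+ciliaKO the range of males, 9.19 to 14.1 CPM (median 12.8), enclosed that of females, 11.8 to 13.6 (median 12.5). Tmem231, another membrane protein of the complex, was lower in males by 0.26 on the log2 scale (value -0.26, SE 0.09, adjusted p = 0.022), and Ptpdc1 by 0.23 (value -0.23, SE 0.09, adjusted p = 0.048). The call of Ptpdc1 was lost in DESeq2, with DESeq2's size factors and without the 6 libraries. Rab23 was higher in noncystic males by 0.36 (SE 0.09, adjusted p = 0.0018), with 7 of 8 above every noncystic female, and Invs by 0.27 (SE 0.07, adjusted p = 0.0052), also with 7 of 8.

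**Figure D5:**
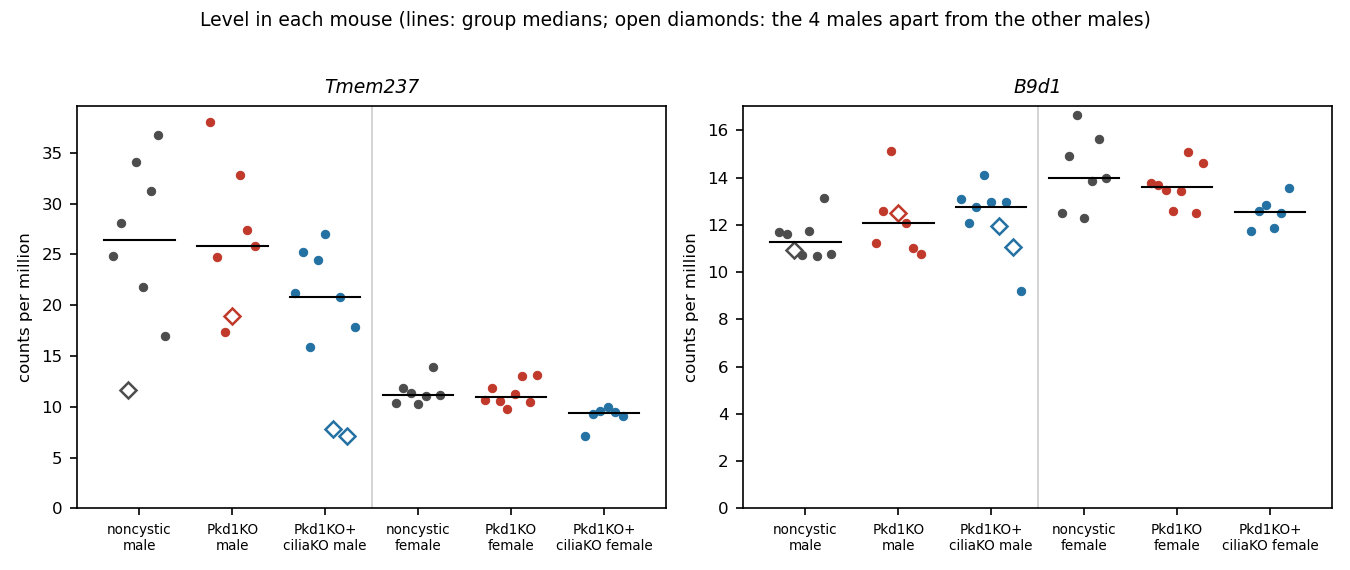
CPM (y axis, TMM scaled) of Tmem237 and B9d1 in each mouse of the 6 groups (x axis), with a line at each group's median and open diamonds for the 4 males apart from the other males. Tmem237 is spread from 7.14 to 38.1 CPM in males and from 7.14 to 13.9 in females, and B9d1 is lower in noncystic males than in noncystic females.

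The response to genotype was not shown to differ between the sexes for any member. For the interaction of sex with Pkd1KO against noncystic mice, 0 of 30 passed in edgeR's test and 0 had an unadjusted p under 0.05 (0.0126% of all genes passed). With Pkd1KO against Pkd1KO+ciliaKO, 0 passed and 1 had an unadjusted p under 0.05 (0.221% of all genes passed). With Pkd1KO+ciliaKO against noncystic mice, 0 passed and 2 had an unadjusted p under 0.05 (0.0316% of all genes passed). DESeq2 called 0 members in each of the 3 in this order, against 0.183%, 0.455% and 0.133% of all genes, and limma voom called 0, 0 and 1, the last being B9d1, against 0%, 0.840% and 1.40%. The smallest p in the first and the last was that of B9d1, with male minus female differences of log2 fold change of 0.16 (SE 0.10) and 0.29 (SE 0.11, adjusted p = 0.63). In the second it was that of Cep164, a distal appendage protein that docks the basal body, at -0.19 (SE 0.09, adjusted p = 0.58). Cep164 lay at medians of 47.4, 44.8 and 49.2 CPM in noncystic, Pkd1KO and Pkd1KO+ciliaKO males, and of 52.1, 54.1 and 47.0 in the females, with the groups overlapping between 41.7 and 58.9 over all mice. For the members called in a genotype comparison, the interactions of Anks3 were -0.04 (SE 0.08) against noncystic mice and -0.09 (SE 0.08) against Pkd1KO+ciliaKO, and those of Ptpdc1 were -0.02 (SE 0.12) and -0.19 (SE 0.12).

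Other genes of the same pathways were read from lists of known function, drawn up with earlier results of these data known. Of 33 further nephronophthisis, Joubert and cystic ciliary genes tested, 1 rose and 0 fell in Pkd1KO against noncystic males (6.30% of all genes passed), and 1 rose and 1 fell in females (3.34%). Glis2, a zinc finger factor whose loss causes nephronophthisis, was the gene that rose, with 388 to 483 CPM in Pkd1KO males (median 446) against 169 to 223 in noncystic males (median 182), and 372 to 526.2 (median 432) against 149 to 272 (median 204) in females. Its log2 fold change was 1.22 in males (SE 0.07, adjusted p = 1.1e-07) and 1.08 in females (SE 0.11, adjusted p = 1.8e-05), larger than that of any of the 30 genes, and the study had named it from these libraries. Tulp3, an adaptor that brings receptors into cilia, fell in females (-0.28, SE 0.07, adjusted p = 0.026). In Pkd1KO against Pkd1KO+ciliaKO, 1 of the 33 passed in males, Glis2 (3.77% of all genes passed), and 5 in females (11.7%), all higher, namely Glis2, Cys1, Fam149b, Fbf1 and Cby1. In Pkd1KO+ciliaKO against noncystic mice Glis2 alone of the 33 passed in males, at 0.43 (SE 0.07, adjusted p = 0.00059), with 8.89% of all genes passing. In females Glis2 stood at 0.08 in that comparison (SE 0.11, adjusted p = 0.72). Of the 5 called in Pkd1KO against Pkd1KO+ciliaKO females, Cys1 had the largest value after Glis2, 0.48 (SE 0.12, adjusted p = 0.017). Cys1 encodes the cystin mutated in the cpk mouse with cystic kidneys.

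Among the transcription factors of ciliogenesis, the RFX genes did not pass between genotypes in edgeR's test. Of 8 factors tested in males and 9 in females, Foxj1, the master factor of motile cilia, was higher in Pkd1KO+ciliaKO against noncystic males (0.93, SE 0.20, adjusted p = 0.0060), and Gmnc, which starts the multiciliate program, was higher in Pkd1KO against Pkd1KO+ciliaKO females (1.43, SE 0.43, adjusted p = 0.040). Of 15 genes of motile cilia, Ccdc39 (0.69, SE 0.20, adjusted p = 0.038) and the dynein Dnah11 (0.59, SE 0.18, adjusted p = 0.047) were higher in Pkd1KO+ciliaKO against noncystic males. In females Dnah11 (-0.51, SE 0.15, adjusted p = 0.041) and Tekt4 (-0.90, SE 0.26, adjusted p = 0.038) were lower in Pkd1KO against Pkd1KO+ciliaKO. In Pkd1KO against noncystic mice 0 of the 15 passed in either sex (6.30% of all genes in males and 3.34% in females). Over all genes, 8.89% passed in Pkd1KO+ciliaKO against noncystic males and 11.7% in Pkd1KO against Pkd1KO+ciliaKO females. The levels of these factors and motile cilium genes are not given here.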

How the data were processed

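The authors deposited counts per gene and mouse, without normalization, and TPM tables of protein-coding genes for each sex; both were made from reads trimmed with fastp 0.20.0, aligned with STAR 2.7.9 to GRCm38.p6 and counted with featureCounts 2.0.0, per the labels. The deposited TPM served for levels between genes and as an alternative. Groups and replicate numbers came from the labels.

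Each pair of genotypes was fitted within a sex with edgeR 4.0.16 in R 4.3.3 (TMM, quasi-likelihood test, Benjamini-Hochberg adjustment over the protein-coding genes that reached 6 counts in 20% or more of that sex's mice), and the sexes in a fit of all 45 mice. A fold change is that of the first group named over the second. The scripts were tested on simulated data. DESeq2 1.42.0, limma 3.58.1 (voom, and log2 of TPM plus 1 or 0.1) and the other settings named in the closing section were alternatives. How the counting treated strand and multimapping reads was not given in the sources used here, so genes that share exon bases with another gene are uncertain.

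The members and lists were chosen with earlier results of these data known. Full values were given for the 4 members named by the study, those that passed in at least 2 comparisons of genotypes, and those with the smallest p in a comparison, and other members that passed were named with their values. Nek1 levels, and B9d2 and Anks6, were added after their values were seen. Symbols and coordinates come from GENCODE vM21, in which all 30 members have the coordinates of the files. Of the lists, Katnip was not matched. P-values cover the spread between these mice.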

Additional observations from a re-analysis of the deposited data

Results flagged for a closer look

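Dixon's criterion at the 95% level was applied to 60 sets, each the values of a gene in a group. In 11 of these sets the highest or lowest mouse stood apart from the others. The genes were Anks3, Ptpdc1, Rab23, Tmem67, Sdccag8, Invs, Tmem237, B9d1, Cep164 and Kif3a. Chance flags about 1 in 20 such sets. The sets come from the same 45 mice and are not independent, so 11 of 60 cannot be weighed against that rate. Kif3a, a targeted gene, had 4 of the 11: 13.8 CPM in noncystic male 8, 29.2 in Pkd1KO male 3, 6.69 in noncystic female 5 and 20.7 in Pkd1KO+ciliaKO female 6. Sdccag8 stood apart in the same Pkd1KO+ciliaKO female 6, at 15.9 CPM. Anks3 was low for its group in Pkd1KO male 4, at 42.1 CPM, which is 1 of the 4 males apart on the first principal component. Tmem237 was high in noncystic female 6, at 13.9 CPM, and low in Pkd1KO+ciliaKO female 1, at 7.14. B9d1 was high in noncystic male 7, at 13.2 CPM, and in Pkd1KO male 3, at 15.1, and Cep164 was high in Pkd1KO+ciliaKO female 4, at 55.4.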

How the results depend on the processing

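For the single calls described, 27 in all, 243 of 268 alternatives kept the direction and the side of the threshold, 25 kept the direction and missed the threshold, and 0 reversed. The numbers of members called moved by over 1.5 times as follows, and the cause was not tested. In Pkd1KO against Pkd1KO+ciliaKO females 8 were called (11.7% of all genes). Without Pkd1KO+ciliaKO female replicate 6, whose Kif3a went against its label, 5 were called (10.4% of all genes). In males 3 were called (3.77%), 6 with DESeq2 (7.72%) and 6 with limma voom (8.69%). In Pkd1KO against noncystic females 3 were called (3.34% of all genes), 5 with DESeq2 (6.02%) and 5 with voom (5.07%). In males 4 were called (6.30%), and 2 with limma on log2(TPM + 0.1), which called 669 of all 15991 genes. In Pkd1KO+ciliaKO against noncystic females 0 were called (2.54%), 4 with DESeq2 (8.01%) and 4 with voom (8.50%). Without the 2 female libraries whose Kif3a went against their labels 2 were called (5.80%). With the 3 genotypes in 1 fit 2 were called there, and 487 of all 15968 genes. Limma called 1 on log2(TPM + 0.1) and 1 on log2(TPM + 1), and 1007 and 1000 of all genes. Between the sexes 6 were called (27.4% of all genes) and 12 with voom, which called 6593 of all 15828 genes. For the interaction with Pkd1KO+ciliaKO against noncystic mice 0 were called (0.0316%), and 1 with voom (1.40%). Leaving out noncystic male 8 was added after seeing the data. On log2(TPM + 0.1) the median of all genes was -0.11 in males and -0.10 in females in Pkd1KO against Pkd1KO+ciliaKO and 0.13 in Pkd1KO+ciliaKO against noncystic females, and the female calls of the first split into 4 higher and 3 lower members, against 6 and 2.

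Deviations of mice with the same replicate number correlated between -0.35 and 0.47 across the pairs of groups, so the numbers do not pair the mice. With the replicate number as a block, 3 members were called in Pkd1KO against Pkd1KO+ciliaKO females and 2 in males. In Pkd1KO against noncystic mice 3 were called in females (298 of all 15968 genes) and 3 in males (821 of all 15991). In Pkd1KO+ciliaKO against noncystic mice 0 were called in females (74 of all 15968 genes) and 2 in males (765 of all 15991). Between the sexes 8 were called (4397 of all 15828 genes). The block also lowered the calls over all genes in every comparison of genotypes within a sex, so fewer calls are not particular to the members. Between the sexes it raised the calls over all genes slightly.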
